A study of Mus musculus with 10 samples.

Results

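The genes of 4 subunits of Polycomb repressive complex 2 (PRC2), Jarid2, Ezh2, Eed and Suz12, were examined for H3K4me3 and H3K27me3 in mouse embryonic stem cells with BAF250a (WT) and without it (KO). BAF250a is a subunit of the BAF chromatin remodelling complex. The members were all enriched intervals ("islands") overlapping 1 window per gene on the mouse build mm9: Jarid2 at chromosome 13, 44815000 to 45025000, Ezh2 at chromosome 6, 47470000 to 47560000, Eed at chromosome 7, 97095000 to 97140000, and Suz12 at chromosome 11, 79795000 to 79855000. They comprised 42 of the 84243 islands in the 4 lists: 19 of 28365 for WT H3K4me3, 23 of 40978 for KO H3K4me3, 0 of 8067 for WT H3K27me3 and 0 of 6833 for KO H3K27me3. The genes were chosen by the H3K4me3 island widths and read counts of these libraries, with the long KO island inside Jarid2 already known, so H3K4me3 values between genotypes are given as a description and nothing is supported with them.

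Both groups were embryonic stem cells of strain 129/C57BL/6, kept on mouse embryonic fibroblast feeders with LIF, so feeder chromatin can be part of every library. From 4 hours after passage, cells labelled BAF250a Knockout received 1 µM 4-OH tamoxifen for 36 hours, and cells labelled WT received ethanol on the same schedule. Deletion and drug exposure therefore cannot be told apart, and the labels name neither the allele nor the recombinase. Each mark was profiled in a single ChIP library of each genotype, so how much libraries of 1 genotype vary is unknown for every difference given here. One title reads H2K27me3 where the antibody field of that KO library gives H3K27me3. The loss of Arid1a, which encodes BAF250a, was not checked here, because no gene annotation of mm9 was used. For the same reason islands were not assigned to exons, introns or gene starts.

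PRC2 places methyl groups on lysine 27 of histone H3, and the trimethylated form, H3K27me3, marks silenced developmental genes in stem cells. EZH2 is the catalytic subunit, EED binds H3K27me3 and stimulates the enzyme, and SUZ12 is the scaffold of the core complex. JARID2 is an accessory subunit that helps bring PRC2 to its targets. H3K4me3 is found at the starts of active or poised genes, mostly where the DNA is rich in CpG dinucleotides.

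The DNA before the annotated start of each gene is shown because H3K4me3 commonly lies over CpG-rich starts and each window held a strong H3K4me3 island in both genotypes. Sequences are the 250 bases before the start in RefSeq on build GRCm38.p6, 5′ to 3′, and all 4 genes matched (Jarid2 has 2 entries, of which the one at the gene's outer end is shown). Capitals mark CpG dinucleotides. These positions belong to another build than the islands and are not comparable with them.
Jarid2 (chr13:44730524-44730773, plus strand): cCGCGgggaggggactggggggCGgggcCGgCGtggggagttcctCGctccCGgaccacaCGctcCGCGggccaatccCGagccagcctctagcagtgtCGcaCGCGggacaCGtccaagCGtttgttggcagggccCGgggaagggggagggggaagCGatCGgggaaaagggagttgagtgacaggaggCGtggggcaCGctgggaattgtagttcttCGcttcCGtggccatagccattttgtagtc
Ezh2 (chr6:47595031-47595280, minus strand): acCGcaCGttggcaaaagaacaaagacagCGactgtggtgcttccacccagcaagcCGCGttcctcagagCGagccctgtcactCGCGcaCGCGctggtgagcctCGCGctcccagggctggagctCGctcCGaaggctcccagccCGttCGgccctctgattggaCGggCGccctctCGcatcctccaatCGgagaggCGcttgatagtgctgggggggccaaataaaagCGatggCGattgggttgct
Eed (chr7:89980977-89981226, minus strand): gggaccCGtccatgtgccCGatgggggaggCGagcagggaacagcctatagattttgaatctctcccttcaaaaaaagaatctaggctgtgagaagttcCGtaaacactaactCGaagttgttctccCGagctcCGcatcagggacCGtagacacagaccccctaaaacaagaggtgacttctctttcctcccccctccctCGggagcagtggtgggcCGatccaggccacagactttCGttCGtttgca
Suz12 (chr11:79992856-79993105, plus strand): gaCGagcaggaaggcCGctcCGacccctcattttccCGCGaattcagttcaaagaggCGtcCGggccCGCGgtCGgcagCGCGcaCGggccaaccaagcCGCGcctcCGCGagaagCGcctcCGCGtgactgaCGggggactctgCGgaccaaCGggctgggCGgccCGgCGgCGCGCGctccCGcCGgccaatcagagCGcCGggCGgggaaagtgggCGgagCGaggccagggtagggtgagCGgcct
CpG, searched as the letters CG, which read the same on both strands, occurred 23 times before Jarid2, 23 times before Ezh2, 12 times before Eed and 37 times before Suz12, against a median of 6 in 32851 promoter entries. As many or more occurred in 13.3% of entries for Jarid2 and Ezh2, in 33.5% for Eed and in 2.20% for Suz12. Eed thus had the fewest CpGs of the 4 and Suz12 the most. By fold over input, the highest main H3K4me3 island of the 4 was that of Eed in WT (13.0) and that of Suz12 in KO (15.4), as given below. Bases after the start were not counted, and a link between CpG count and H3K4me3 was not tested. In that build Jarid2 lies between the protein-coding genes Cd83 and Dtnbp1, Eed between Hikeshi and Picalm, and Suz12 between Utp6 and Crlf3. Ezh2 has Cul1 on its lower side and overlaps the long non-coding RNA gene F830010H11Rik. Jarid2 and Suz12 are transcribed toward higher coordinates, and Ezh2 and Eed toward lower ones.

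Reads were listed for islands only, so how many reads fell elsewhere is unknown and is not taken as 0. H3K4me3 islands held 9565481 ChIP reads in WT and 13512350 in KO. H3K27me3 islands held 1140878 and 839422. Library totals are not given in the lists. The fold over input is ChIP reads over input (control) reads, divided by the ChIP to input depth ratio of each list. The scaled ratio is KO over WT reads divided by 1.31, the same ratio over the 23315 regions that held H3K4me3 islands of both genotypes with 20 or more reads in each (shared regions). A region is the merged extent of overlapping WT and KO islands. Intervals are 95% and cover counting error only.

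Across Jarid2, H3K4me3 was called over 46.8 kb in WT and 146.2 kb in KO. Inside the window's limits this was 46.8 and 141.0 kb, or 22.3% and 67.1% of the window, since 1 KO island crosses the lower limit. In WT, 13 islands held 3783 ChIP and 453 input reads. In KO, 14 islands held 10466 ChIP and 1438 input reads. All 46.8 kb called in WT were also called in KO, and 99.4 kb were called in KO alone. The map of the Jarid2 islands shows a tall first block in WT followed by scattered low blocks, and in KO a nearly unbroken run over the same stretch.

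**Figure D1:**
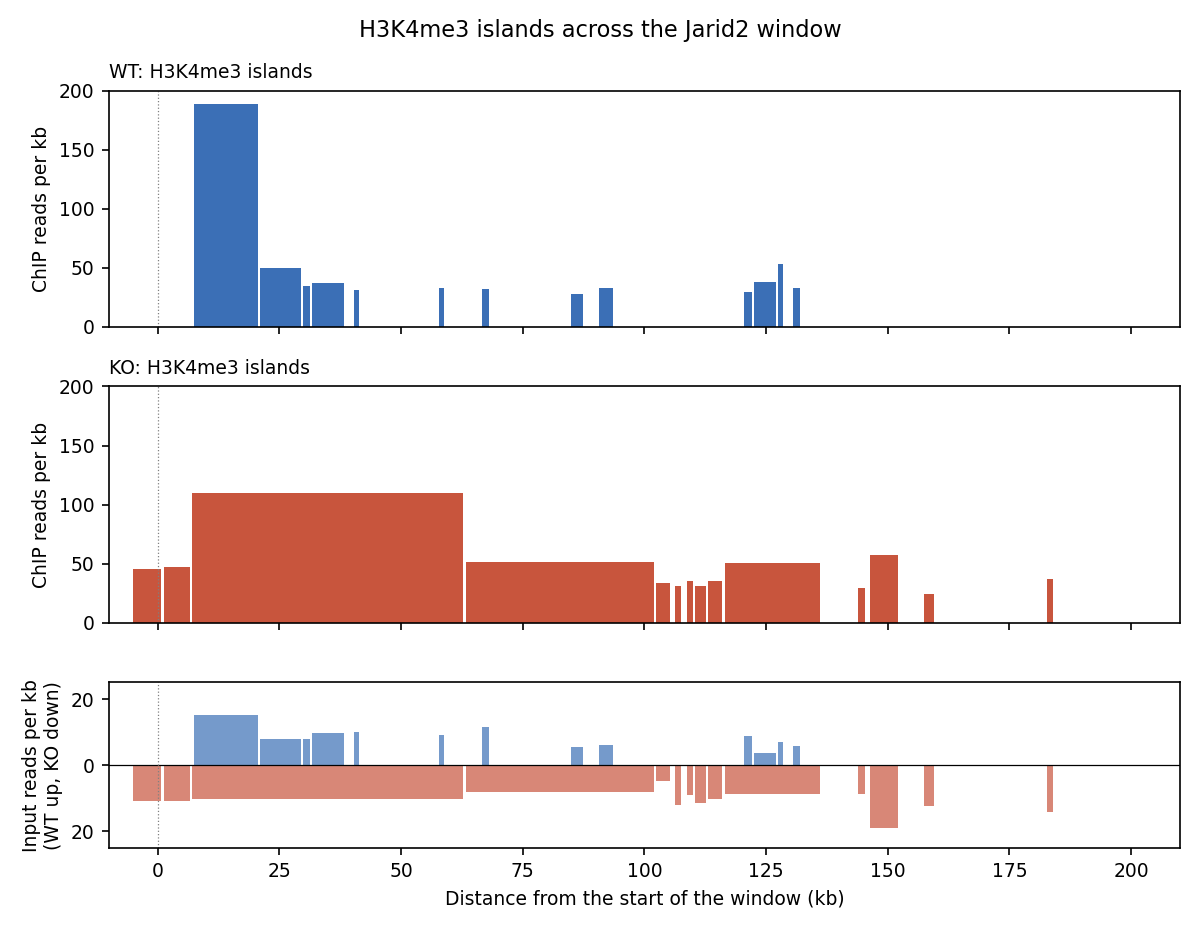
H3K4me3 islands across the 210 kb Jarid2 window in the WT and KO libraries, drawn to scale along the distance in kb from the window's start (dotted line), with ChIP reads per kb of each island as height (not scaled for depth). The lowest panel gives input reads per kb, WT upward and KO downward. The 55.8 kb and 38.6 kb KO islands, at 110.1 and 51.8 ChIP reads per kb, cover 9 separate WT islands.

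The island with most reads stood at chromosome 13, 44822401 to 44835600, in WT, where 13.2 kb held 2486 ChIP and 200 input reads, a fold over input of 6.99. In KO it ran from 44822001 to 44877800, 55.8 kb with 6142 ChIP and 577 input reads, a fold of 7.91. Its lower end moved by 0.4 kb and its higher end by 42.2 kb, the direction in which Jarid2 is transcribed. It was the second widest of all 40978 KO H3K4me3 islands, whereas the WT island ranked 340 by width among 28365. The KO island covered 6 WT islands that together held 3258 ChIP and 361 input reads over 31.6 kb, so 24.2 kb of it had no WT call. Over this region the log2 scaled ratio was 0.52 (0.46 to 0.58) and the log2 ratio of folds 0.64 (0.44 to 0.84), where the medians over all shared regions were 0.04 and 0.66.

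The next KO island, at chromosome 13, 44878401 to 44917000, was 38.6 kb long and held 1999 ChIP and 308 input reads, a fold of 4.82. WT had 3 islands under it. The first, 44881601 to 44883000, held 45 ChIP and 16 input reads, a fold of 1.58. The second, 44900001 to 44902400, held 67 and 13 reads (2.90-fold), and the third, 44905601 to 44908600, held 99 and 18 (3.09-fold). These 3 islands covered 17.6% of the KO island and left an uncalled gap of up to 17.0 kb between them.

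The log2 scaled ratio of this region was 2.85 (2.64 to 3.06), and 23 of the 23315 shared regions, this one included, had a ratio as high. Its called length was 5.68 times as long in KO, as high in 59 shared regions. Per kb of called length the ratio was lower: 31.0 ChIP reads in WT against 51.8 in KO, or 1.27 times as many after scaling. The WT islands here held 27.9 to 33.0 reads per kb, where the fifth percentile of all WT H3K4me3 islands was 29. A called WT density could thus hardly be lower, which limits this ratio. Median densities over all shared regions were 70.9 in WT and 81.9 in KO before scaling. The log2 ratio of folds was 0.93 (0.45 to 1.42), and 27.5% of shared regions had one as high. Input per kb was 6.91 in WT and 7.98 in KO. The 7.21-fold ratio of scaled reads is thus the product of 5.68 for called length and 1.27 for density, and WT reads in the uncalled 31.8 kb are not in it.

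Farther along the gene, the KO island at 44931601 to 44951000 (19.4 kb, 980 ChIP and 168 input reads, 4.33-fold) covered 4 WT islands with 314 ChIP and 45 input reads over 8.4 kb. The strongest of these by fold, 44937601 to 44942000, had 168 ChIP and 16 input reads and a fold of 5.90, so a distal H3K4me3 site was already present in WT. The log2 scaled ratio there was 1.25 (1.06 to 1.44), while the log2 ratio of folds was 0.14 (−0.36 to 0.65) and spanned 0. Per kb, 37.4 reads in WT and 50.5 in KO gave a scaled ratio of 1.03.

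The other 11 of the 14 KO islands had no overlapping WT island, as did 40.4% of all KO H3K4me3 islands. They held 42 to 333 reads each, 1345 in all over 32.4 kb, at 1.46 to 5.37-fold over input. The largest by reads, 44961401 to 44967200, held 333 ChIP and 111 input reads, 19.1 input reads per kb, the highest input density of the window. A pair of islands, 44809801 to 44815600 with 263 reads and 44816201 to 44821600 with 254, lay on the lower side of the main island, and the first of them crosses the window's edge. Among the islands of the window, 11.6 kb below the lower end of the WT main island were called in KO and none in WT.

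Gaps between neighbouring KO islands from 44809801 to 44951000 were short. With H3K4me3 islands joined across gaps of up to 0.6 kb, a rule chosen after the data were seen, 5 KO islands formed a run of 110.4 kb at Jarid2, the longest of 36159 runs in the KO list. The next, on chromosome 17, spanned 80.2 kb. The WT run at Jarid2 spanned 30.8 kb and ranked 24 of 24961. With gaps of up to 1, 2 and 5 kb the KO run at Jarid2 spanned 112.8, 154.4 and 158.8 kb and stayed the longest. The WT run ranked 36, 51 and 107. With gaps of 2 and 5 kb the KO runs began at 44796601 and 44792201, below the window, and so include islands that are not members. The next KO run, on chromosome 19, spanned 151.6 kb with gaps of 2 and of 5 kb, nearly as long.

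Within Jarid2 the read density dropped away from the main island in both genotypes. The WT main island held 188.3 ChIP reads per kb and its 12 other islands 27.9 to 53.0. The KO main island held 110.1 and the 13 others 24.5 to 57.4. The plot of width against density places the 38.6 kb KO island among the low-density islands although it is among the widest. Of the 26 KO islands at least 38.6 kb wide, it and the 44.8 kb island at chromosome 4, 130237801 to 130282600, had the lowest densities, 51.8 and 47.6 reads per kb, and the other 24 held 90.2 to 169.4. The same 2 had called lengths over 4 times those of WT, and the next highest was 2.58 times.

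**Figure D2:**
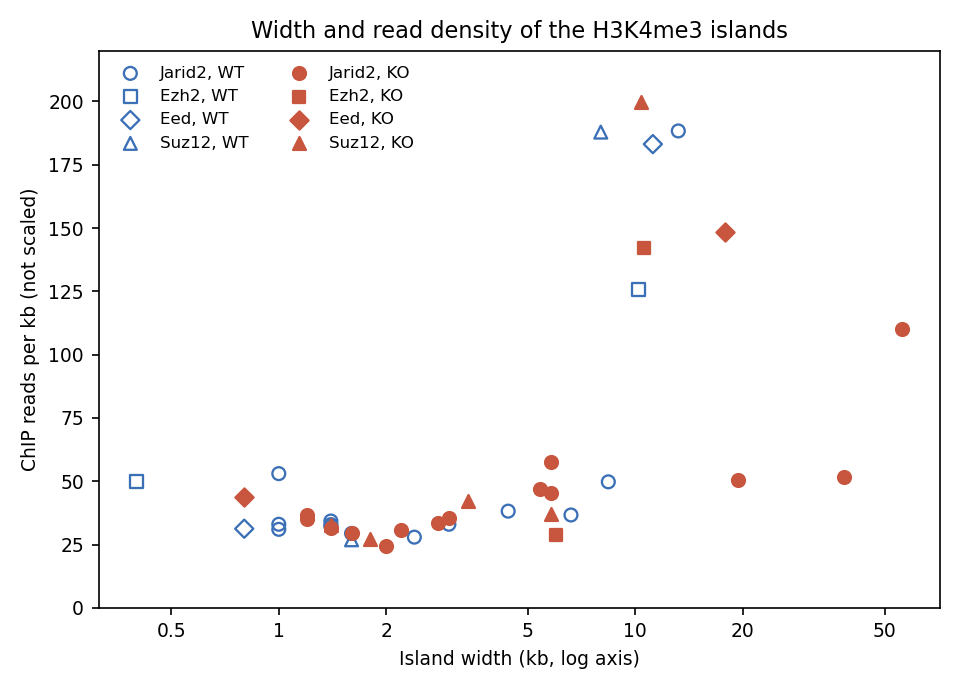
Width in kb (log axis) and ChIP reads per kb (not scaled for depth) of all 42 H3K4me3 islands in the 4 windows, WT as open and KO as filled symbols, 1 symbol shape per gene. Each gene has 1 dense island per genotype at 110 reads per kb or more, and all other islands lie at 57.4 or less, the 38.6 kb Jarid2 island included.

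The 5 shared regions most like this Jarid2 region in length ratio and scaled ratio, among 2339 with 1 KO island over several WT islands and 100 or more reads in each library, lay at chromosome 4, 130237801 to 130282600, chromosome 2, 10253601 to 10265400, chromosome 11, 20032601 to 20044000, chromosome 4, 55485001 to 55495800, and chromosome 7, 126997401 to 127009400. The first resembled it in width too (44.8 kb). The KO islands of the remaining 4 were 10.8 to 12.0 kb wide.

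Ezh2 kept a main island of nearly equal width in both genotypes. In WT it spanned chromosome 6, 47537401 to 47547600 (10.2 kb), with 1283 ChIP and 77 input reads, a fold of 9.37. In KO it spanned 47537801 to 47548400 (10.6 kb), with 1505 and 82 reads, a fold of 13.6. The log2 scaled ratio was −0.16 (−0.27 to −0.06) and the log2 ratio of folds 0.54 (0.08 to 1.00), so the sign differed between the measures. Their medians over all shared regions differed too, at 0.04 and 0.66. Of shared regions, 71.1% had a scaled ratio as high and 60.7% a ratio of folds as high. KO had 1 further island 0.6 kb away on the side toward which Ezh2 is transcribed, 47531201 to 47537200, with 172 ChIP and 28 input reads at 28.7 reads per kb. A WT island of 0.4 kb on the other side, 47549601 to 47550000, had 20 ChIP and 0 input reads and no KO partner.

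At Eed, the KO main island was longer than in WT and joined 2 WT islands. In WT, chromosome 7, 97123201 to 97134400 (11.2 kb), held 2051 ChIP and 89 input reads (13.0-fold), and 97122001 to 97122800 held 25 and 3. In KO, 97117801 to 97135600 (17.8 kb) held 2645 and 145 reads (13.6-fold). The region's log2 scaled ratio was −0.05 (−0.13 to 0.04) and its log2 ratio of folds 0.10 (−0.29 to 0.48). Both intervals span 0, which does not show that the libraries were alike. The island gained 5.4 kb at its lower end, the side toward which Eed is transcribed, and 1.2 kb at the other. A KO island of 0.8 kb with 35 reads at 97099201 to 97100000 had no WT partner.

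Suz12 had the densest main island of the 4 genes in KO. In WT, chromosome 11, 79803401 to 79811400 (8.0 kb), held 1503 ChIP and 72 input reads, 11.7-fold over input and 187.9 reads per kb. In KO, 79803401 to 79813800 (10.4 kb) held 2079 and 100 reads, 15.4-fold and 199.9 per kb. The lower ends were identical and the higher end lay 2.4 kb farther in KO. The log2 scaled ratio was 0.07 (−0.02 to 0.17) and the log2 ratio of folds 0.40 (−0.05 to 0.84). A KO island followed 0.6 kb beyond, 79814401 to 79820200, with 214 ChIP and 49 input reads and no WT call. At the window's lower edge, toward Utp6, KO islands at 79792001 to 79795400 and 79795801 to 79797600, with 144 and 49 reads, faced 1 WT island at 79794401 to 79796000 with 43 reads. That edge region had a log2 scaled ratio of 1.77 (1.29 to 2.28) on few WT reads. A KO island of 46 reads at 79799201 to 79800600 had no WT partner.

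**Figure D3:**
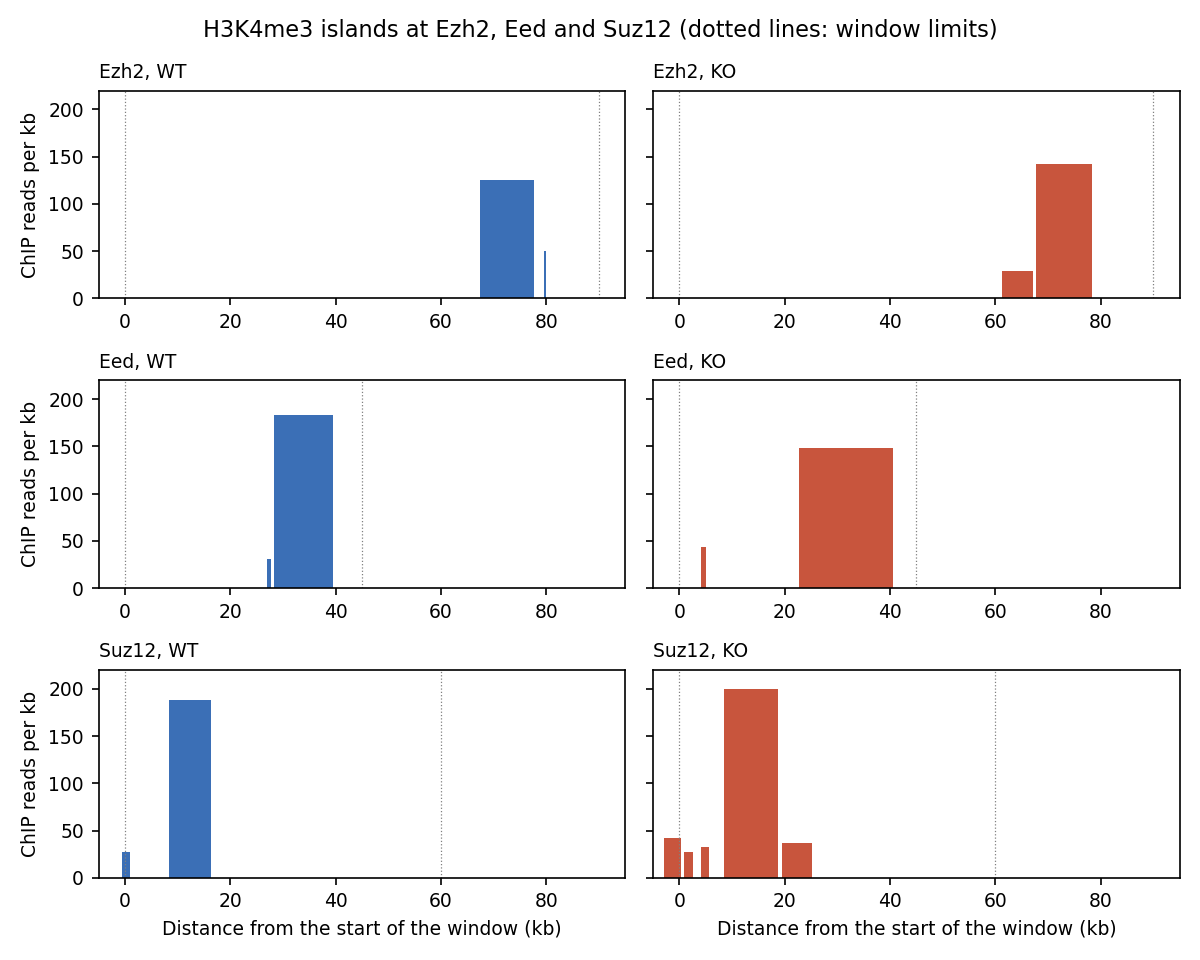
H3K4me3 islands in the Ezh2, Eed and Suz12 windows, WT at left and KO at right, drawn to scale along the distance in kb from each window's start, with ChIP reads per kb as height (not scaled for depth) and dotted lines at the window limits. Each gene has 1 dense island at the same place in both genotypes, and the low KO islands beside it at Ezh2 and Suz12 hold 27.2 to 42.4 reads per kb.

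Set side by side, the windows differed in called length more than in enrichment. Called length in KO over WT was 3.12 at Jarid2 (46.8 and 146.2 kb), 1.57 at Ezh2 (10.6 and 16.6 kb), 1.55 at Eed (12.0 and 18.6 kb) and 2.38 at Suz12 (9.6 and 22.8 kb). These sums include islands called in 1 genotype alone. Over the whole H3K4me3 lists, counted likewise, called length was 101.4 Mb in WT and 147.5 Mb in KO, so a greater length in KO was general. The windows differ in size, 210, 90, 45 and 60 kb in the same order. In WT 22.3%, 11.8%, 26.7% and 15% of them were called, and in KO 67.1%, 18.4%, 41.3% and 33%. The log2 scaled ratio of summed reads was 1.07 (1.02 to 1.13) at Jarid2, with 3783 and 10466 reads, and 0.32 (0.23 to 0.41) at Suz12, with 1546 and 2532. It was −0.03 (−0.14 to 0.07) at Ezh2, with 1303 and 1677 reads, and −0.03 (−0.11 to 0.06) at Eed, with 2076 and 2680. The Jarid2 interval overlapped none of the other 3, but the genes were chosen by these read counts and the intervals cover counting error only. No difference between genes is supported by this.

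Pooled fold over input per window was 4.69 in WT and 5.41 in KO at Jarid2, 9.51 and 11.3 at Ezh2, 12.7 and 13.4 at Eed, and 10.9 and 9.13 at Suz12. Jarid2 thus had the lowest fold of the 4 in either genotype. The log2 ratio of these folds was 0.20 (0.04 to 0.37) at Jarid2, and its interval spanned 0 at Ezh2 (−0.18 to 0.69), Eed (−0.31 to 0.46) and Suz12 (−0.63 to 0.13). On this measure the interval of Jarid2 overlapped those of all 3 other genes. Over all shared regions the median log2 ratio of folds was 0.66, and 91.5% had a higher fold in KO. A value of 0 is therefore not the usual one. All 4 windows lay below that median, but the sets are unlike, because the windows also pool islands called in 1 genotype alone. Taken by shared region, the 38.6 kb Jarid2 region lay above the median at 0.93, and the other member regions lay below it. Input per kb in KO was 1.02 times that of WT at Jarid2, 0.912 at Ezh2, 1.04 at Eed and 1.08 at Suz12.

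**Figure D4:**
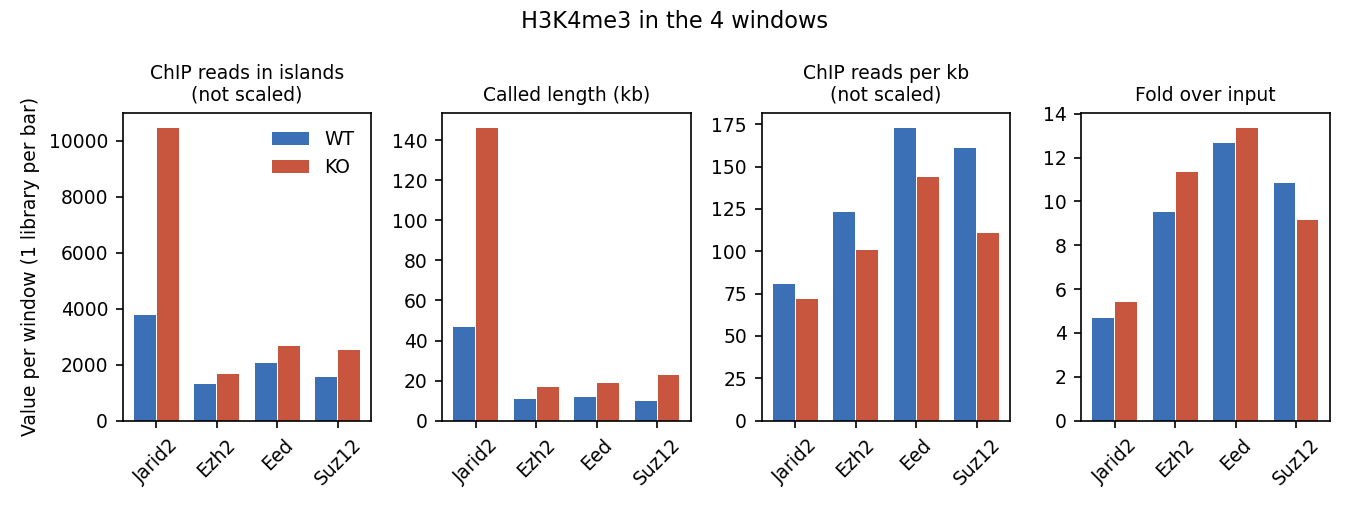
Summed H3K4me3 ChIP reads in islands, called length in kb, ChIP reads per kb and fold over input for each gene window, WT and KO side by side, 1 library per bar and so no error bars. Reads are not scaled for depth. Jarid2 has the most reads (3783 and 10466) and the greatest length (46.8 and 146.2 kb), in a window of 210 kb against 90, 45 and 60 kb. Per kb, KO is lower than WT in all 4 windows, as it is over all H3K4me3 islands of the lists (94.3 in WT and 91.6 in KO).

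Per kb of called length, the scaled KO over WT ratio was 0.674 at Jarid2, 0.625 at Ezh2, 0.634 at Eed and 0.525 at Suz12. KO density was thus lower than WT in all 4 windows. It was also lower in the main shared region of each gene taken alone, with ratios of 0.812 at Jarid2, 0.859 at Ezh2, 0.653 at Eed and 0.809 at Suz12. In the 3 remaining shared regions, the pair of distal Jarid2 regions and the Suz12 edge region, the scaled ratios were 1.27, 1.03 and 1.05. Beyond the ends of the WT main island, called length in KO exceeded that in WT by 87.8 kb at Jarid2, 6.0 kb at Ezh2, 5.4 kb at Eed and 8.2 kb at Suz12 on the side toward which each gene is transcribed. On the opposite side the excess was 11.6, 0.4, 1.2 and 5.0 kb. The sides are not equally covered, because the windows reached 189.4, 67.4, 28.2 and 43.6 kb from the WT main island on the transcribed side and 7.4, 12.4, 5.6 and 8.4 kb on the other.

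The 42 islands formed 23 regions: 7 with islands of both genotypes, 15 with KO islands alone and 1 with a WT island alone. Over all 41461 H3K4me3 regions, 39.9% had KO islands alone and 3.65% WT islands alone. Scaled reads were 2-fold or more higher in KO in 3 of the 7, the pair of distal Jarid2 regions and the Suz12 edge region, where the share over all shared regions was 5.73%. No member region was 2-fold or more lower, where that share was 1.69%. Called length was longer in KO in 7 of 7 (71.8% of all shared regions) and 2-fold or more longer in 3 (11.0%). A single KO island covered several WT islands in 4 of 7 (10.4%), 3 at Jarid2 and 1 at Eed. Fold over input was higher in KO in 7 of 7 (91.5%) and 2-fold or more higher in 0 (23.3%). Islands of 10 kb or wider numbered 3 of 19 in WT (4.31% of all WT islands) and 6 of 23 in KO (6.63%). Over the 7 regions the median log2 scaled ratio was 0.52, the median log2 ratio of folds 0.40 and the median length ratio 1.77, beside 0.04, 0.66 and 1.2 over all shared regions. The rule drew on this contrast, so nothing is read from these counts.

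**Figure D5:**
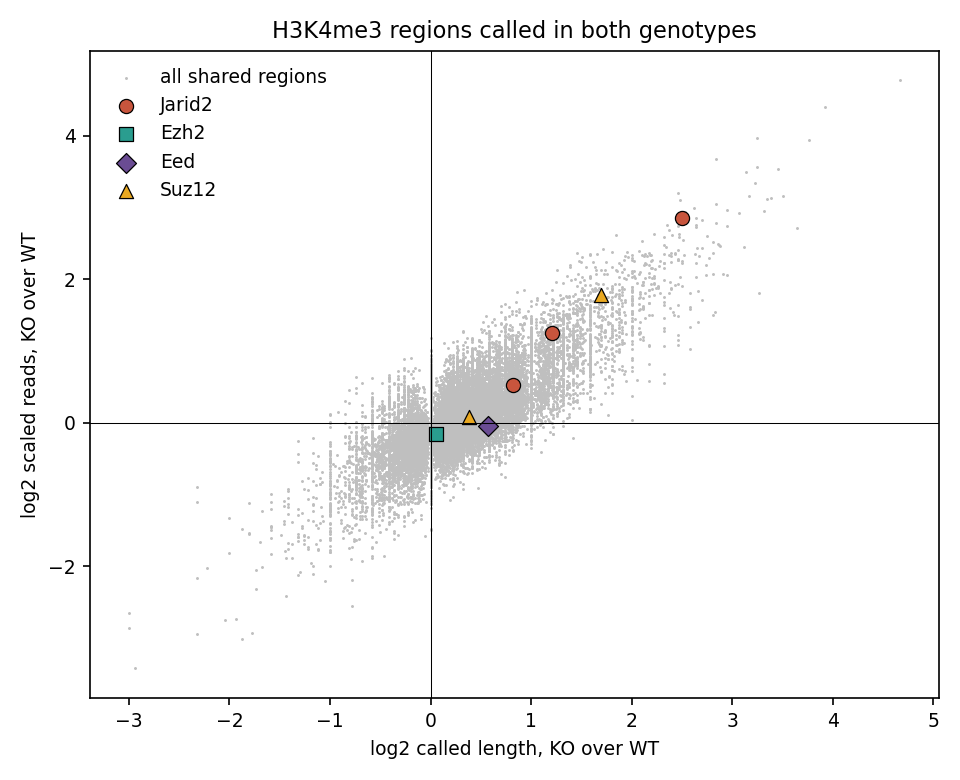
Log2 KO over WT called length and log2 KO over WT scaled reads for the 23315 shared H3K4me3 regions (grey points) and the 7 of them in the 4 gene windows (coloured symbols). The 38.6 kb Jarid2 region lies at a log2 scaled ratio of 2.85, and the main Ezh2, Eed and Suz12 regions lie between −0.16 and 0.07.

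H3K27me3, the product of the complex these genes encode, was called in none of the 4 windows in either genotype. Over the 3379 shared H3K27me3 regions, KO over WT reads were divided by 0.732, the ratio of their summed reads. Those sums were 866393 in WT and 634065 in KO. After this scaling, reads were 2-fold or more higher in KO in 14.0% and lower in 5.50%, none of them a member. Of H3K4me3 islands 10 kb or wider, 7.04% overlapped H3K27me3 in WT and 3.28% in KO, so lack of overlap was usual for wide islands. The nearest H3K27me3 island to the Jarid2 window lay 149.4 kb away in WT, with 37 ChIP and 12 input reads, and 1026.8 kb away in KO, with 96 and 63. For Eed the nearest lay 305.6 kb away in WT (268 ChIP reads, 1.90-fold) and 306.0 kb away in KO (119 reads, 2.83-fold), in overlapping islands. For Suz12 it lay 255.6 and 1112.6 kb away. For Ezh2 it lay 34.2 kb away in WT, with 78 reads at 2.74-fold, and 41.6 kb away in KO, in a segment rich in input with 2658 ChIP and 2237 input reads at 1.16-fold. The smallest H3K27me3 islands of the lists had 19 ChIP reads (WT) and 22 (KO), and the fifth percentile was 38 and 46. H3K27me3 too weak to be called an island is not in the lists, so no call is not a level of 0.

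At the window limits, which fixed the membership, the WT island just outside Eed ended at 97095000 (97092801 to 97095000, 70 reads, 6.56-fold). The KO island there, 97084601 to 97093000, held 1284 reads at 11.6-fold and was left out likewise. The WT island is out because the limits were read like the coordinates of the lists. With the limits read as 1-based bases it is a member, which gives Eed 14.2 kb and 2146 reads in WT, a length ratio of 1.31 and a log2 scaled ratio of −0.074, and changes no other window. By contrast, the WT island just inside Suz12, 79794401 to 79796000, crossed the limit and was counted. Outside Jarid2 the nearest islands lay 7.0 kb below (KO, 173 reads) and 9.4 kb above (KO, 40 reads). No test was made at these limits.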

How the data were processed

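The 4 ChIP libraries were analysed. The nucleosome and input libraries were not used on their own. Per the submitters' processing notes, reads were processed with Bowtie and SICER version 1.1 on build mm9. By the names of the deposited files, SICER worked in windows of 200 bp, joined across 200 bp for H3K4me3 and 600 bp for H3K27me3, at an FDR of 0.05. How reads were filtered is not given in the sources used here. For every island the authors deposited a count of ChIP reads and of control reads. The deposited fold ratio equals ChIP over control reads divided by 1 constant per list, 1.78 for WT and 1.35 for KO H3K4me3, where 0.25 stands in for 0 control reads. The FDR listed for each island served to filter islands in an alternative. Control reads were equal in all 11 WT and 4 KO intervals identical in both marks. Starts and ends are given 1-based, 1 added to each.

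Window sums, merged regions (overlap of 1 bp or more), exact conditional binomial intervals for read ratios and normal log-scale intervals for fold ratios were computed with scipy 1.17.1, pandas 2.3.3 and numpy 2.4.6 under Python 3.11.15. Figures used matplotlib 3.10.9. Simulated counts with counting error alone, without variation between libraries or island calling, served to check the code for the ratios. They say nothing about the values given here. With 1 library per genotype, no p-value was computed. Members, windows and lists were chosen with earlier results of these data known, and all 4 genes are named with every island described or counted. Other PRC2 genes are not analysed here for want of mm9 positions. The precision is limited by island reads, 20 to 6142 per H3K4me3 island of the windows.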

Additional observations from a re-analysis of the deposited data

How the results depend on the processing

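No paired analysis was possible because each genotype and mark had 1 ChIP library, and the nucleosome libraries that share replicate numbers were not used. Of 71 alternative values, 42 stayed within their interval (or within 1.5 times a length or share), 22 moved and 7 changed sign. The cause was not tested, except that counting per kb removes called length by construction. For H3K27me3 in the windows no alternative gave a value, as there was no island. Log2 KO over WT by fold over input was 0.20 at Jarid2, 0.25 at Ezh2, 0.076 at Eed, −0.25 at Suz12 and 0.93 at the 38.6 kb island. Per kb it was −0.57, −0.68, −0.66, −0.93 and 0.34. Without scaling it was 1.47, 0.36, 0.37, 0.71 and 3.24. Scaled to all island reads it was 0.97 at Jarid2, −0.13 at Eed and 0.21 at Suz12. With islands at an FDR of 1e-05 or less, or a fold of 2 or more, the 38.6 kb island gave 3.20 in both. With only the island with most reads in each list, chosen after the data were seen, it was 0.91 at Jarid2, −0.16 at Ezh2 and 0.073 at Suz12. Regions 2-fold higher in H3K4me3 were 3.21% with 50 or more reads and 1.76% with 100 or more, and 2-fold lower 1.04% and 0.626%. For H3K27me3 they were 6.18% and 2.74% with 100 or more reads.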
